A study of Homo sapiens with 6 samples.

Results

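The 10 genes MAPT, MAP2, MAP4, MAP1A, MAP1B, MAP6, DCX, STMN2, NEFL and NEFM were chosen by symbol as the tau, microtubule-associated and neurofilament genes of a differentiated neuronal line. They are 10 of the 61860 genes in the deposited table, each symbol matched 1 row, and all 10 passed the filter on low values that left 16574 genes for testing. The rule uses the symbols alone and no measured value. The cells were SH-SY5Y, a human neuroblastoma line of noradrenergic character, taken towards neurons with all-trans retinoic acid. In the IR+Oligonol group (3 libraries) the cells received insulin at 100 nM and D-glucose at 30 mM for 24 h, the labels' way of inducing insulin resistance (IR), and Oligonol, a low-molecular-weight polyphenol preparation made from lychee fruit, at 500 ng/mL for 24 h. In the IR control group (3 libraries) the cells received the same insulin and glucose and no Oligonol. Differentiation and the insulin and glucose exposure were thus shared by all 6 libraries, no library of cells without insulin resistance was analysed here, and whether Oligonol was given during or after the induction is not stated. All libraries came from 1 cell line, and RNA was total RNA made into libraries with a stranded kit.

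Microtubules run the length of axons and dendrites, and the proteins encoded by these genes bind, space or stabilise them or fill the axon beside them. Tau, MAP2 and MAP4 share a carboxy-terminal microtubule-binding domain built of imperfect repeats: tau is mainly axonal, MAP2 mainly in dendrites and the cell body, and MAP4 is found in many cell types. MAP1A and MAP1B are made as precursors that are cleaved into a heavy and a light chain, MAP1B being abundant in growing neurites and MAP1A in mature ones. MAP6 makes microtubules resistant to cold, doublecortin (DCX) binds the lattice in migrating and newly born neurons, and stathmin 2 (STMN2) binds tubulin in growth cones. NEFL and NEFM encode the light and medium subunits of neurofilaments, the intermediate filaments of axons.

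The repeats of the tau family can be compared between these genes at the level of the transcript. Each sequence below is 45 coding bases from the longest coding transcript of GENCODE release 29, read from GRCh38, and the capitals mark the 4 codons of the motif lysine, any residue, glycine, serine that opens the conserved core of a repeat.
MAPT repeat 1: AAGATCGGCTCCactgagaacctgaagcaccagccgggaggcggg
MAP4 repeat 1: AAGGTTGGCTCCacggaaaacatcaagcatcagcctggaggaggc
MAP2 repeat 2: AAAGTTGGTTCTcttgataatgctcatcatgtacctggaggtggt
MAPT repeat 1 lies at chr17:45996617-45996661 on the plus strand. The MAP4 repeat lies at chr3:47870816-47870860 on the minus strand, and the MAP2 repeat at chr2:209729909-209729953 on the plus strand. The MAPT and MAP4 repeats shown had the same base at 77.8% of the 45 positions. G and C made up 64.4% of MAPT repeat 1, 55.6% of MAP4 repeat 1 and 42.2% of MAP2 repeat 2. Only repeats with isoleucine, cysteine or valine in the motif, and N, H and PGGG at fixed places after it, were taken. They are numbered among those taken, so a number need not be that of the repeat in the protein. The shorter motif alone occurred 4 times in MAPT, 3 times in MAP2 and 4 times in MAP4, and not every match in MAP2 and MAP4 was taken. Repeats of the same gene differ as well, and over all repeats taken the ranges overlapped, at 48.9 to 64.4% in MAPT, 46.7 to 55.6% in MAP4 and 42.2 to 57.8% in MAP2. The highest identity between any such repeats of 2 of these genes was 80.0%, for repeat 2 of MAPT and repeat 2 of MAP4.

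A pair of longer sequences is shown because base composition recurs in the results. MAP1A and MAP1B encode related proteins, and the 90 bases given for each are the first coding window whose share of G and C is nearest that of the gene's whole coding sequence, with every G and C in capitals.
MAP1A: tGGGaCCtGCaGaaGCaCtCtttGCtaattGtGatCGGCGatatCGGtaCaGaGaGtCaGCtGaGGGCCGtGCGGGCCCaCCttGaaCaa
MAP1B: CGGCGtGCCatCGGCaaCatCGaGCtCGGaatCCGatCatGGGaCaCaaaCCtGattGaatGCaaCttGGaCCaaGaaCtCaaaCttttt
The MAP1A window lies at chr15:43511136-43511225 on the plus strand and holds 55.6% G and C. The MAP1B window begins at 72107688 and ends at 72115759 on chromosome 5, plus strand, across an exon junction, and holds 48.9%. Over whole longest coding transcripts the GC content was 55.3% for MAP1A and 44.9% for MAP1B, 57.4% for MAPT, 50.0% for MAP4 and 42.1% for MAP2.

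The libraries held 19457923 to 20912945 estimated counts with Oligonol and 22738203 to 32209583 in controls. The deposited values behave as if on a scale per length of transcript. This is an inference from low values, and levels are set between genes on that assumption. Levels are given as CPM (counts scaled to a fixed library total) after TMM scaling, which uses the bulk of the genes to put libraries on 1 scale. Protein-coding genes took 11.4% ± 1.22 of the estimated counts with Oligonol and 6.60% ± 0.313 in controls (SD, n = 3 each), and the median transcript GC of those counts was 52.3% ± 1.61 with Oligonol and 56.1% ± 0.174 in controls. For both measures the groups did not overlap, and an exact 2-sided permutation test gave p = 0.1, the smallest that 3 against 3 libraries allow. By an estimate from the steps of the low values, MAPT rested on 312 to 434 reads per library and MAP2 on 161 to 596, the lowest of the 10, if each gene's transcripts have their annotated median length. The same values come to 970 to 1348 reads for MAPT and 2107 to 7783 for MAP2 at the length of the longest coding transcript, so depth is known only within that span. A gene was called when the adjusted p of edgeR's quasi-likelihood test, over all 16574 genes, was under 0.05. By that rule 4304 genes (26.0%) were called higher with Oligonol and 3808 (23.0%) lower. Because the GC content of the coding counts moved with the group, the fold change of each of the 10 genes is also given from a fit in which each library's trend with transcript GC was removed, which called 468 genes higher (2.89% of 16200) and 414 lower (2.56%).

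Of the 10 genes, 2 were called higher with Oligonol (DCX and MAP2), 1 was called lower (MAP1A) and 7 were not called. The 3 calls are to be read against a background in which 48.9% of all tested genes were called. The log2 fold changes ran between -0.62 and 1.25 with a median of -0.07, beside a median of 0.15 over all tested genes. None of the 10 was called by edgeR's test once the GC trend was removed, nor with GC of the longest coding transcript, a fit that called 3.90% of all tested genes higher and 3.73% lower. In the fit with GC of the median transcript DCX and MAP2 had an unadjusted p under 0.05, both higher, and the median over the 10 was -0.04, beside 0.03 over all tested genes. In bulk RNA, fewer cells of a type and less RNA per cell cannot be told apart.

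**Figure D1:**
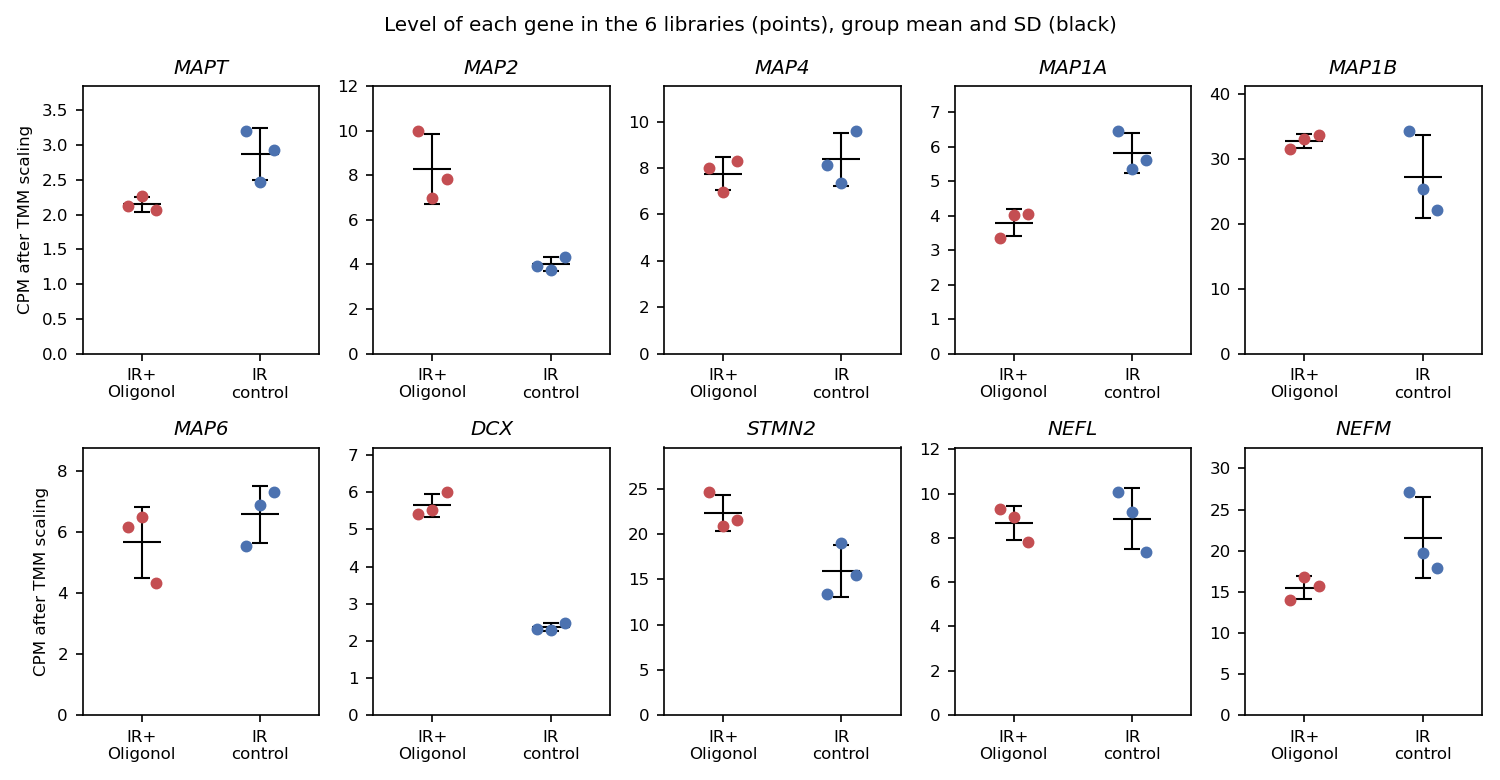
CPM after TMM scaling of each of the 10 genes in each library (points), with the group mean and SD in black, IR+Oligonol left of IR control, each panel starting at 0. The Oligonol points lie wholly above the control points for MAP2, DCX and STMN2 and wholly below them for MAPT, MAP1A and NEFM, and the groups overlap for MAP4, MAP1B, MAP6 and NEFL.

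MAPT, which encodes tau, lies at chr17:45894527-46028334 on the plus strand (ENSG00000186868). Its level was 2.12, 2.26 and 2.06 CPM in the Oligonol libraries, against 3.21, 2.47 and 2.92 CPM in the control libraries. All 3 Oligonol libraries were below all 3 controls, a placement that 28.8% of all tested genes shared. The mean was 2.15 ± 0.104 CPM with Oligonol and 2.87 ± 0.374 CPM in controls (SD, n = 3 each), a log2 fold change of -0.42 (SE 0.18), and it missed the threshold (adjusted p = 0.0824). Removing the GC trend turned the sign, to 0.30 (adjusted p = 0.30), so tau mRNA has no direction in these data that holds in both fits. MAPT was called lower, at -0.65 (adjusted p = 0.0311), when Oligonol library 2 was left out, where 24.1% of all tested genes were. MAPT had the lowest mean of the 10 genes with Oligonol, and lay above 45.8% of the tested protein-coding genes with Oligonol and above 58.9% in controls.

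MAP2, at chr2:209424047-209734118 on the plus strand (ENSG00000078018), stood at 10.0, 6.98 and 7.85 CPM with Oligonol, against 3.94, 3.74 and 4.36 CPM in controls. Every Oligonol library was above every control, and library 1 was the highest. Its mean was 2.06 times as high with Oligonol, 8.28 ± 1.56 CPM beside 4.01 ± 0.316 CPM in controls (SD, n = 3 each), and the log2 fold change of 1.04 (SE 0.20) passed the threshold (adjusted p = 0.00854). Without the GC trend it was 0.60 (adjusted p = 0.0583). That value rested on which transcript stands for the gene: the median GC over the annotated MAP2 transcripts is 47.3%, and many of those are short, while the longest coding transcript has 42.1%. With GC taken from the longest coding transcript, an alternative added after seeing the data, the log2 fold change was 0.26 (adjusted p = 0.308). With the GC trend removed among protein-coding genes only, also added after seeing the data, MAP2 was called higher (0.61, adjusted p = 0.0224). That fit called 7.07% of 11715 genes higher, against 2.89% of 16200 in the GC fit over all genes. The call with group only was also lost without control library 2 (0.90, adjusted p = 0.055) and without control library 3 (1.02, adjusted p = 0.0506). In those fits 8.65% and 2.90% of all tested genes were called higher, in that order, against 26.0% with all libraries.

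MAP4, the member of the tau family found outside neurons, lies at chr3:47850690-48089272 on the minus strand (ENSG00000047849). Its 3 values with Oligonol were 8.02, 6.95 and 8.29 CPM, and those of the controls were 8.15, 7.38 and 9.62 CPM. The groups overlapped, and the log2 fold change was -0.11 (SE 0.18, adjusted p = 0.629), and -0.14 with the GC trend removed. Of the 3 genes that share the repeat domain MAP2 was called higher, MAP4 overlapped and MAPT lay below controls without passing the test. A difference in call is not a test between the genes. With the GC trend removed none of the 3 was called, at 0.60 for MAP2, -0.14 for MAP4 and 0.30 for MAPT.

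MAP1A (chr15:43510958-43531620, plus strand, ENSG00000166963) measured 3.34, 4.02 and 4.04 CPM with Oligonol, against 6.47, 5.34 and 5.62 CPM in controls. The groups did not overlap, and the lowest control was above the highest Oligonol library by more than the spread of the Oligonol group. The mean was 3.80 ± 0.399 CPM with Oligonol and 5.81 ± 0.585 CPM in controls (SD, n = 3 each), which is 0.654 times the control level. The log2 fold change of -0.62 (SE 0.17) passed the threshold (adjusted p = 0.0211), though with library totals alone as scaling it was 0.74 and called higher, where the median of all tested genes was 1.53. That scaling called all 10 genes higher, with 68.1% of all tested genes called higher and 0.223% lower. MAP1A was at -0.15 (adjusted p = 0.537) after the GC trend was removed. Leaving out either Oligonol library 1 or 3, or control library 2 or 3, ended the call, with log2 fold changes of -0.53, -0.66, -0.76 and -0.73 in that order. In the same order 4.21%, 2.85%, 3.88% and 0.996% of all tested genes were called lower in those fits, against 23.0% with all libraries. The call was also lost with no filter on low values (adjusted p = 0.0619) and with a minimum of 10 estimated counts in all libraries (-0.37, adjusted p = 0.104).

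MAP1B, whose protein is a relative of MAP1A, lies at chr5:72107234-72209565 on the plus strand (ENSG00000131711) and had the highest mean level of the 10 in both groups. It stood at 31.6, 33.2 and 33.7 CPM with Oligonol, against 34.4, 25.4 and 22.1 CPM in controls. Control library 1 was above all Oligonol libraries and the other two controls were below them, so the groups overlapped. The log2 fold change was 0.27 (SE 0.24, adjusted p = 0.376) and turned to -0.11 (adjusted p = 0.757) with the GC trend removed. An antisense gene overlaps an exon at its start (ENSG00000285804, chr5:72087782-72108000, minus strand). This antisense gene was called higher with Oligonol, at a log2 fold change of 1.15 (adjusted p = 0.0238), and at 0.38 (adjusted p = 0.601) it was not called with the GC trend removed. Whether the authors' estimates used strand is not given, so reads of the antisense gene and of MAP1B cannot be told apart where they overlap. The same holds for MAPT, MAP6, NEFL and NEFM, each of which has an annotated antisense gene over an exon.

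MAP6 (chr11:75586918-75669038, minus strand, ENSG00000171533), the cold-stability factor, measured 6.19, 6.49 and 4.34 CPM with Oligonol, against 5.54, 6.90 and 7.32 CPM in controls. Oligonol library 3 was the lowest of the 6, and the remaining values were interleaved. Its log2 fold change was -0.22 (SE 0.21, adjusted p = 0.420), and 0.15 (adjusted p = 0.635) with the GC trend removed.

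DCX, the marker of young neurons, lies at chrX:111293779-111412429 on the minus strand (ENSG00000077279). It was at 5.41, 5.52 and 6.01 CPM with Oligonol, against 2.31, 2.29 and 2.49 CPM in controls. The gap between the groups was several times the spread within either. Of the 10 genes DCX had the largest fold change, 5.65 ± 0.316 CPM with Oligonol and 2.36 ± 0.109 CPM in controls (SD, n = 3 each), a log2 fold change of 1.25 (SE 0.16, adjusted p = 0.00606). It was the only one of the 10 that was called higher in all 15 alternatives without a GC term, with log2 fold changes of 1.07 to 2.64, the highest with library totals alone. Once GC was removed DCX stood at 0.48 (SE 0.15, adjusted p = 0.104) and with GC taken from the longest coding transcript at 0.50 (adjusted p = 0.0881). It was above 0 in all 10 alternatives with a GC term and called in 0 of them by edgeR's test.

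STMN2 (chr8:79611117-79666158, plus strand, ENSG00000104435) stood at 24.6, 20.9 and 21.6 CPM with Oligonol, against 13.4, 19.0 and 15.5 CPM in controls. The Oligonol libraries were all above the controls, library 2 and control library 2 being the closest. The log2 fold change of 0.49 (SE 0.22) missed the threshold (adjusted p = 0.0934), although it was called with upper quartile scaling (0.58, adjusted p = 0.0481, with 28.7% of all tested genes called higher) and when only protein-coding genes were fitted (0.55, adjusted p = 0.0457, with 34.0% called higher). It was also called with a minimum of 10 estimated counts in all libraries (0.74, adjusted p = 0.0119, with 32.0% called higher). STMN2 was at -0.09 (adjusted p = 0.743) with the GC trend removed.

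Neither neurofilament gene was called. NEFL (chr8:24950955-24956721, minus strand, ENSG00000277586) measured 9.29, 8.93 and 7.83 CPM with Oligonol, against 10.1, 9.15 and 7.37 CPM in controls. The 2 sets of values were interleaved, with a log2 fold change of -0.03 (SE 0.19, adjusted p = 0.920), and 0.01 with the GC trend removed. NEFM (chr8:24913758-24919098, plus strand, ENSG00000104722) measured 14.0, 16.8 and 15.7 CPM with Oligonol, against 27.1, 19.7 and 17.9 CPM in controls. All Oligonol libraries were below the controls, control library 1 being the highest of the 6. Its log2 fold change of -0.48 (SE 0.23) missed the threshold (adjusted p = 0.115), was called with DESeq2 (-0.54, adjusted p = 0.0333, with 24.1% of all tested genes called lower) and without Oligonol library 2 (-0.73, adjusted p = 0.0381), and was -0.13 (adjusted p = 0.698) with the GC trend removed.

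By placement, 3 of the 10 genes had every Oligonol library above every control (33.8% of all tested genes did) and 3 had every Oligonol library below (28.8% did). Neither share stands out from that background.

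The order of the 10 fold changes followed transcript GC closely. DCX, with the lowest median transcript GC (43.7%), had the highest log2 fold change, and MAPT and MAP1A, with the highest GC (57.9% and 55.3%), were among the lowest. Spearman's rho between log2 fold change and median transcript GC was -0.92 over the 10 genes, and -0.95 with GC of the longest coding transcript. Over 11719 tested protein-coding genes rho was -0.85. These are correlations across genes of the same 6 libraries, given as a description. After removal of the trend with median transcript GC, rho over the 10 genes was -0.31, and -0.48 with GC of the longest coding transcript. Over the 11719 genes it was then -0.11. A fall in rho is built into that fit, since it subtracts a trend fitted on GC. The genomic span of the gene, which runs between 5.34 kb for NEFM and 310 kb for MAP2, gave 0.45 before and 0.48 after the GC trend was removed.

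**Figure D2:**
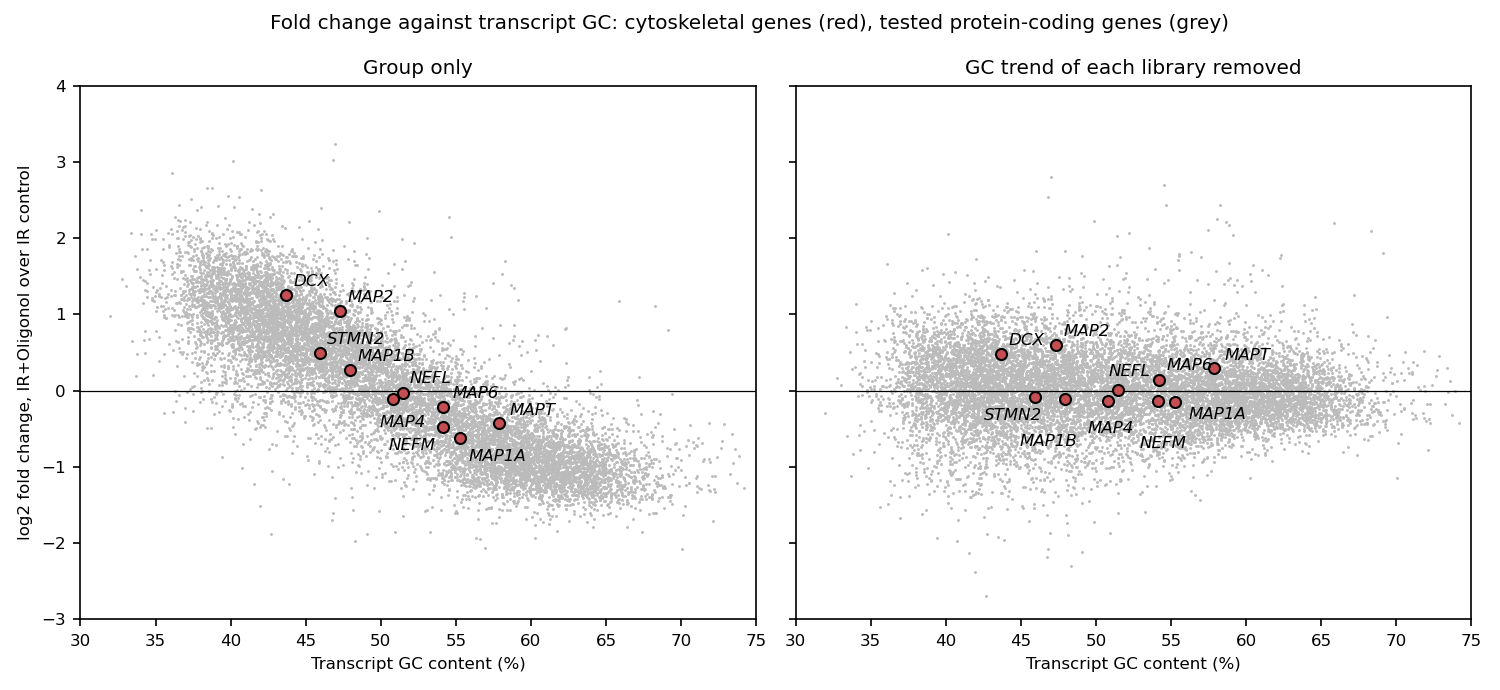
Log2 fold change of IR+Oligonol over IR control against median transcript GC content in percent, for the 10 genes (red, named) and 11719 tested protein-coding genes (grey), from the fit with group only (left) and with each library's GC trend removed (right); 2 grey genes lie outside the vertical axis in each panel. On the left the 10 genes lie along the falling band of all genes, and on the right they lie between -0.15 and 0.60.

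**Figure D3:**
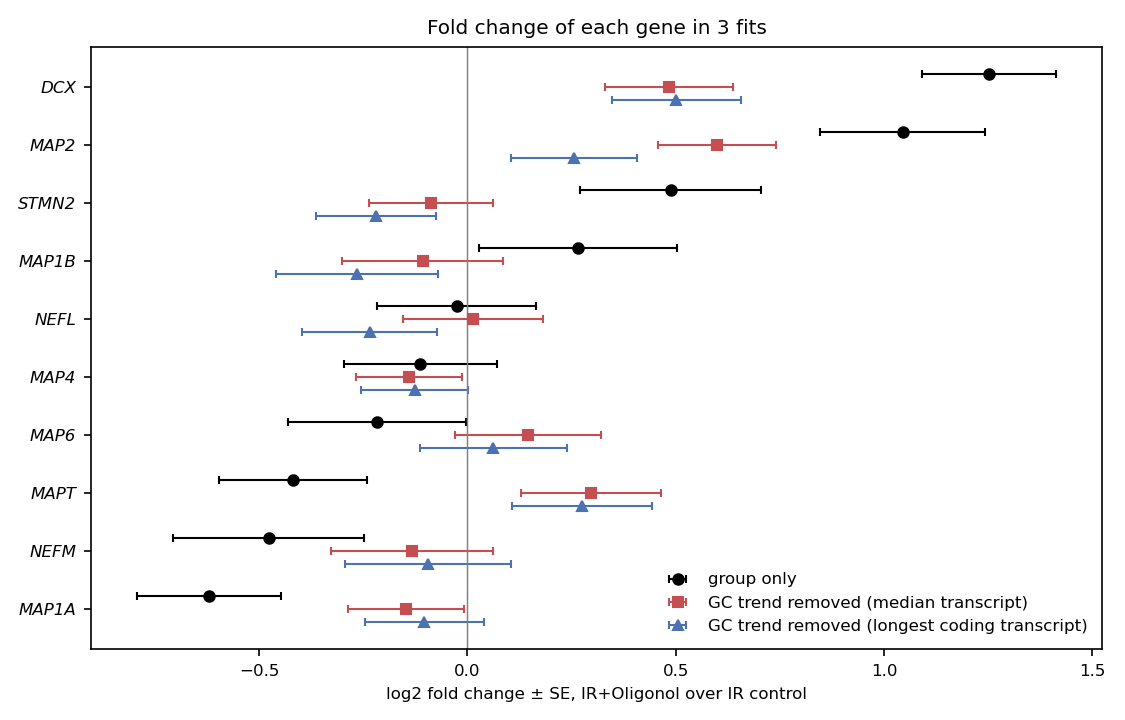
Log2 fold change ± SE of each of the 10 genes in the fit with group only (black circles), with the GC trend of the median transcript removed (red squares) and with that of the longest coding transcript removed (blue triangles). DCX keeps about the same value in both GC fits (0.48 and 0.50), MAP2 does not (0.60 and 0.26), and MAPT, MAP6, MAP1B and STMN2 stand on the other side of 0 in both GC fits, as NEFL does in the first (0.01).

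Ratios of a pair of genes within a library do not depend on how libraries are scaled, and 5 were fixed for related members. The ratio of MAP2 to MAPT, the genes of a mainly dendritic and a mainly axonal repeat protein, was 4.73, 3.08 and 3.81 with Oligonol, against 1.23, 1.51 and 1.49 in controls. Every Oligonol library was above every control, by 1.44 in mean log2 ratio. The ratio of MAP1A to MAP1B was 0.106, 0.121 and 0.120 with Oligonol, against 0.188, 0.211 and 0.254 in controls. Here every Oligonol library was below every control, by -0.90 in mean log2 ratio. DCX over STMN2 averaged 0.254 ± 0.0308 with Oligonol and 0.152 ± 0.0276 in controls (SD, n = 3 each), a log2 difference of 0.76 with no overlap. The subunit ratio of NEFM to NEFL averaged 1.80 ± 0.258 with Oligonol and 2.42 ± 0.269 in controls (SD, n = 3 each), a log2 difference of -0.44, again with no overlap. Each of these 4 ratios had p = 0.1 in an exact 2-sided permutation test, the smallest that 3 against 3 can give, and an adjusted p of 0.125 over the 5 ratios. A share over other pairs of genes was not computed. Of single tested genes, 62.6% had groups that did not overlap in CPM after TMM scaling, in either direction. MAP4 over MAPT, at 3.63 ± 0.496 with Oligonol and 2.94 ± 0.377 in controls (SD, n = 3 each), overlapped between groups (log2 difference 0.30, exact permutation p = 0.2).

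A within-library ratio still carries the GC difference of its pair. With the GC trend removed, the log2 difference of MAP1A over MAP1B was -0.05 and that of NEFM over NEFL -0.12, and the groups overlapped in both. MAP2 over MAPT came to 0.29, with no overlap, but to -0.02, with overlap, when GC was taken from the longest coding transcript. MAP4 over MAPT turned to -0.44 (exact permutation p = 0.1, groups not overlapping), and to -0.41 with GC of the longest coding transcript. DCX over STMN2 kept its direction and its separation in both, at 0.57 and 0.72. It was thus the only one of the 5 ratios that did not overlap between groups, in the same direction, in all 3 versions. Its exact permutation p was 0.1 in each, the smallest possible. How often other pairs of genes stay apart in this way was not computed.

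**Figure D4:**
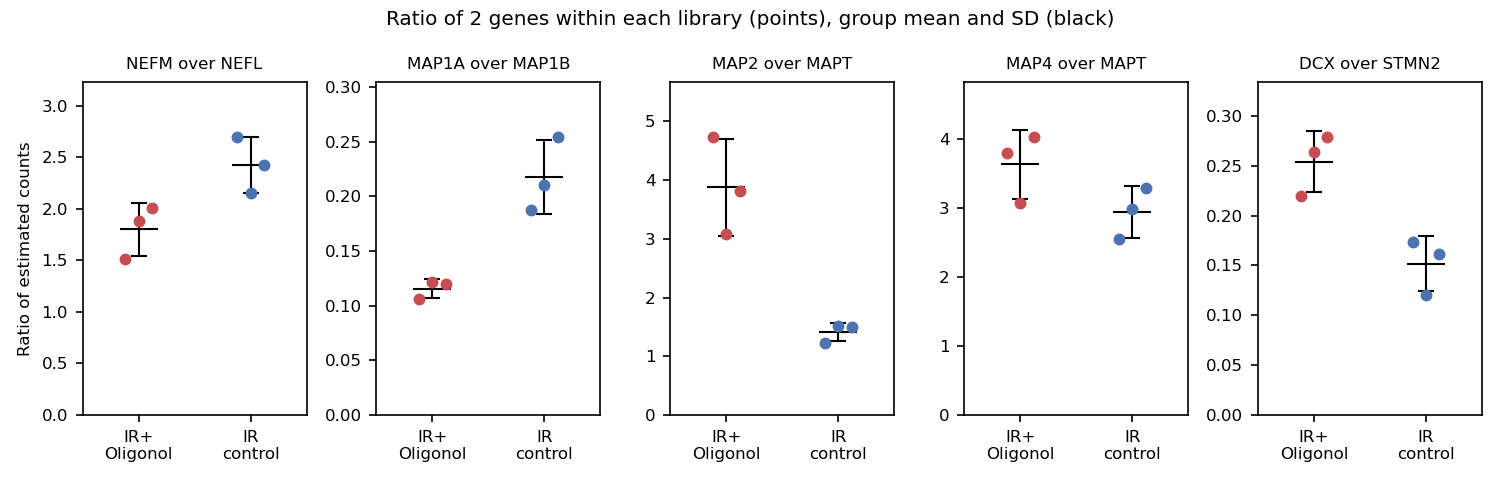
Ratio of estimated counts of a pair of genes in each library (points) with the group mean and SD in black, IR+Oligonol left of IR control, for the 5 pairs of genes, each panel starting at 0. The groups are apart for NEFM over NEFL, MAP1A over MAP1B, MAP2 over MAPT and DCX over STMN2 and overlap for MAP4 over MAPT.

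The order of the genes by level was similar in the 2 groups at its upper end. With Oligonol it ran MAP1B (32.8 CPM), STMN2 (22.4), NEFM (15.5), NEFL (8.68), MAP2 (8.28), MAP4 (7.75), MAP6 (5.67), DCX (5.65), MAP1A (3.80) and MAPT (2.15). These are group means of CPM, taken to be per length. Neighbours in that order whose ranges overlapped were NEFL and MAP2, MAP2 and MAP4, and MAP6 and DCX. In controls the order was MAP1B (27.3 CPM), NEFM (21.6), STMN2 (15.9), NEFL (8.86), MAP4 (8.38), MAP6 (6.59), MAP1A (5.81), MAP2 (4.01), MAPT (2.87) and DCX (2.36). There the ranges of MAP1B and NEFM, NEFM and STMN2, NEFL and MAP4, MAP6 and MAP1A, and MAPT and DCX overlapped. MAP2 stood in the fifth place with Oligonol and in the eighth in controls. Together the 10 genes took 0.179, 0.138 and 0.163% of the protein-coding counts with Oligonol, against 0.124, 0.0919 and 0.0810% in controls. That difference depended on the scaling. As summed CPM after TMM scaling the 10 came to 115, 112 and 111 with Oligonol, against 115, 101 and 95.2 in controls. On that scale the groups overlapped. The TMM factors were 1.94, 1.23 and 1.74 with Oligonol, against 0.739, 0.611 and 0.532 in controls.

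Likeness of profile among the 10 genes over the 6 libraries was measured as the root mean square difference of mean-centred log2 CPM. DCX was nearest to MAP2 (0.202), MAP1A to NEFM (0.141), MAPT to MAP1A (0.145) and MAP1B to NEFL (0.202). STMN2 was the least close to any other, with MAP2 its nearest at 0.327. Among 11718 other tested protein-coding genes, those nearest to MAPT were BEND5 (0.0243) and AHNAK2 (0.0296), those nearest to MAP2 were TMEM243 (0.0416) and KAT6B (0.0458), and those nearest to NEFL were SRSF1 (0.0438) and PLPP5 (0.0533), each over 6 libraries. The median distance from all these genes was 0.462 for MAPT, 0.578 for MAP2 and 0.474 for NEFL.

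Other genes of the microtubule and filament system came from a list of 46, of which 43 were tested. Of these 14 were called higher with Oligonol and 8 lower, beside 26.0% and 23.0% of all tested genes, and their median log2 fold change was 0.13. Genes of microtubule plus ends were mostly higher, 7 of 10 called higher and 1 lower with a median of 0.91, while the median of the same 10 was 0.25 with the GC trend removed. Among them CLASP2, which stabilises growing plus ends, stood at 14.0 ± 0.830 CPM with Oligonol and 4.96 ± 1.45 CPM in controls (SD, n = 3 each), a log2 fold change of 1.50 (adjusted p = 0.00727). CKAP5, a microtubule polymerase, had a log2 fold change of 1.25 (adjusted p = 0.00702). Genes of minus ends and severing gave 4 called higher and 1 lower of 8, with a median of 1.05, and 0.33 with the GC trend removed. The minus-end binder CAMSAP2 was at 1.60 (adjusted p = 0.00671) and the severing enzyme SPAST at 1.42 (adjusted p = 0.00620). With library totals alone as scaling, 37 of the 43 genes were called higher and 0 lower, like most of the table.

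The other role groups held fewer genes called higher. Of 7 tested structural and lattice genes 1 was called higher and 2 lower (median -0.47), the 2 being MAP1S, a short relative of MAP1A and MAP1B, at -0.96 (adjusted p = 0.0158), and MAP7D1 at -0.77 (adjusted p = 0.0149). Among the 5 relatives of STMN2 and DCX, STMN3 was called lower at -1.47 (adjusted p = 0.00933), and the doublecortin-like kinase DCLK1 (1.09, adjusted p = 0.00741) and STMN1 were called higher. Of 7 collapsin response mediator and growth cone genes, the 2 that were called were both lower, DPYSL4 at -0.85 (adjusted p = 0.0250) and DPYSL5 at -0.71 (adjusted p = 0.0259). Of the 6 other intermediate filament genes the only one called was PRPH, the gene of peripherin, which marks peripheral neurons. PRPH was lower, at 0.302 ± 0.0487 CPM with Oligonol and 0.723 ± 0.172 CPM in controls (SD, n = 3 each), a log2 fold change of -1.27 (adjusted p = 0.0139). Its level was low, at 9.09 to 10.25 estimated counts with Oligonol and 9.96 to 15.72 in controls. PRPH was therefore not tested with a minimum of 10 estimated counts in all libraries. INA, which encodes the alpha-internexin that assembles with NEFL and NEFM, was at -0.38 (adjusted p = 0.163). Leaving out any 1 of the 6 libraries kept the calls of CLASP2, CAMSAP2 and SPAST. Without control library 3, where 2.90% of all tested genes were called higher, those of CKAP5 (1.13, adjusted p = 0.0515) and DCLK1 (0.92, adjusted p = 0.0503) were lost. STMN3 lost its call without control library 2, control library 3 or Oligonol library 3, and MAP1S without control library 2, control library 3 or Oligonol library 1. MAP7D1 and PRPH lost theirs without any 1 of these 4 libraries, and DPYSL4 and DPYSL5 without any library other than Oligonol library 2. In each of these fits the share of all tested genes called lower was below the 23.0% with all libraries. EdgeR's test called 0 of the 43 with the GC trend removed, where CLASP2 stood at 0.61, CKAP5 at 0.55, CAMSAP2 at 0.51, SPAST at 0.52, DCLK1 at 0.25, STMN3 at -0.52 and PRPH at -0.34. In that fit 15 of the 43 log2 fold changes changed sign, 5 of them of genes called with group only (MAP1S, MAP7D1, CLIP2, DPYSL4 and DPYSL5), and 9 had an unadjusted p under 0.05 on the higher side and 3 on the lower. With GC of the longest coding transcript MAPRE3 (0.64, adjusted p = 0.0426, and -0.03 with group only) and CLASP1 (0.76, adjusted p = 0.0494) were called higher, both like CLIP2 named after their values were seen.

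**Figure D5:**
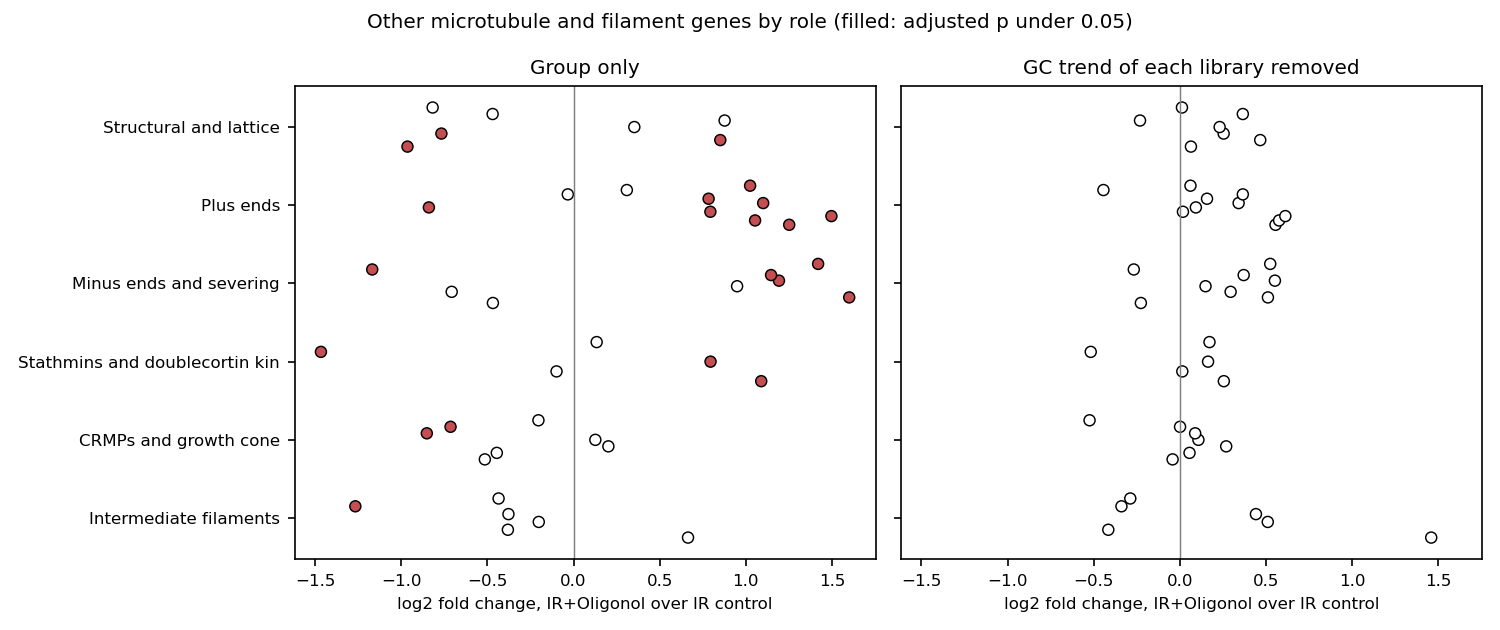
Log2 fold change of IR+Oligonol over IR control of the 43 tested other microtubule and filament genes by role, from the fit with group only (left) and with the GC trend of each library removed (right), each circle a gene and filled circles those with an adjusted p under 0.05. Filled circles are on both sides of 0 on the left (14 higher, 8 lower), and there are 0 on the right.

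The label of a neuronal line was compared with marker genes. The summed level of 8 neuron markers was 127 to 158 CPM with Oligonol and 171 to 219 CPM in controls. TUBB3 was the largest of the 8 in every library, at 41.8, 74.8 and 45.4 CPM with Oligonol, against 99.2, 126 and 131 CPM in controls. The sum therefore does not speak for the 8 as a set: ELAVL4, SNAP25 and SYT1 were called higher and ELAVL3 and TUBB3 lower. The marker of mature neurons RBFOX3 was near 0 in all libraries, at 0.10 to 0.17 CPM with Oligonol and 0.12 to 0.19 CPM in controls. Markers of noradrenergic neuroblasts summed to 122 to 168 CPM with Oligonol and 201 to 236 CPM in controls, with TH, the rate-limiting enzyme of catecholamine synthesis, near 0 at 0.03 to 0.04 CPM with Oligonol and 0.06 to 0.12 CPM in controls. Of the 7 tested neuron markers 3 were called higher and 2 lower, and of the 7 tested neuroblast markers the 1 that was called was lower. Beside these counts, 26.0% of all tested genes were called higher and 23.0% lower. Glial and Schwann markers summed to 1.76 to 2.25 CPM with Oligonol and 1.73 to 2.27 CPM in controls, and myeloid markers to 0.80 to 1.37 CPM with Oligonol and 0.59 to 1.55 CPM in controls. Mesenchymal markers summed to 12.1 to 15.2 CPM with Oligonol and 17.6 to 20.5 CPM in controls, with 1 of 4 tested called higher and 1 lower, against the same background. With the GC trend removed no tested marker of any group was called. The part of these marker levels in the results on the 10 genes was not tested.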

How the data were processed

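Total RNA of 6 libraries was sequenced after a stranded preparation, with paired reads of 100 nt, per the labels' protocols. Tools listed in the submitters' processing notes are kallisto 0.46.1, FastQC and edgeR, and the build is GRCh38.p13, with no role or order. The authors deposited estimated counts and a scaled signal per gene and library. The signal was the estimated count times 1 constant per library and was not used further. The step between transcripts and genes is not stated. For low genes, dividing by effective length gave values within 0.05 of a whole read in 69.5 to 74.7% of cases, with the scale fitted to favour this. On that scale 1 read of 1000 effective nt was worth 0.354 to 0.460 estimated counts with Oligonol and 0.262 to 0.266 in controls, so counting noise is overstated for long mRNAs.

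Estimated counts were rounded, filtered with filterByExpr, scaled by TMM and tested in R 4.3.3 with edgeR 4.0.16 (quasi-likelihood, 2-sided, robust, group only), with Benjamini-Hochberg adjustment over all tested genes and a threshold of 0.05. CPM after TMM are given as mean ± SD. GC trends were natural splines (5 degrees of freedom) of log2 CPM deviations on transcript GC over protein-coding genes of GENCODE release 29 (58308 identifiers matched), entered as offsets. Ratios used the estimated counts as deposited, with a pseudocount of 0.5 as an alternative, and an exact permutation test (scipy 1.17.1). The fits were also run on simulated counts, with no GC trend or a straight one shared by the Oligonol libraries. That setting is simpler than these data, and no result here rests on it. Alternatives were RLE, upper quartile and no scaling beyond totals, other filters, protein-coding genes only, DESeq2 1.42.0, limma-voom (limma 3.58.1), a replicate block and leaving out each library.

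All 10 genes are named, with 2 genes of smallest p in each of 6 roles and the 2 genes nearest MAPT, MAP2 and NEFL. The members and lists were chosen with earlier results of these data known. No label says that replicates were separate cultures, so the p-values reflect only how far these 6 samples vary, and that variation may be technical.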

Additional observations from a re-analysis of the deposited data

How the results depend on the processing

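Removing the GC trend over all genes ended all 3 calls among the 10 genes. EdgeR's test then called 468 genes higher and 414 lower over the table, 0 higher and 0 lower of the 10 genes (2 at an unadjusted p under 0.05) and 0 higher and 0 lower of the other microtubule and filament genes (9 and 3). Here and below, sign changes are listed for the 10 genes and for the 2 genes named by smallest p in each of 6 roles. The log2 fold changes were MAPT 0.30, MAP1B -0.11, MAP6 0.15, STMN2 -0.088, NEFL 0.013, DPYSL4 0.088, DPYSL5 0.00084, MAP7D1 0.25 and MAP1S 0.064, and the log2 difference of MAP4 over MAPT turned to -0.44. With GC of the longest coding transcript, added after seeing the data, the calls were 631 higher and 605 lower over the table, 0 higher and 0 lower of the 10 (1 at an unadjusted p under 0.05), and 2 higher and 0 lower of the others. Over all 43 other genes sign changed for 15 with GC of the median transcript and for 16 with GC of the longest coding transcript. With the second it changed for MAPT 0.28, MAP1B -0.27, MAP6 0.062, STMN2 -0.22, DPYSL4 0.089, DPYSL5 0.017, MAP7D1 0.27 and MAP1S 0.11, and for the ratios NEFM over NEFL 0.17, MAP1A over MAP1B 0.15, MAP2 over MAPT -0.018 and MAP4 over MAPT -0.41. Protein-coding genes only with the GC trend removed, also added afterwards, gave 828 higher and 944 lower over 11715 genes, 1 higher (MAP2, 0.61, adjusted p = 0.0224) and 0 lower of the 10, and 4 higher and 2 lower of the others. There the sign changed for MAPT 0.30, MAP1B -0.10, MAP6 0.15, STMN2 -0.077, NEFL 0.023, DPYSL4 0.091, DPYSL5 0.0035, MAP7D1 0.26 and MAP1S 0.065. Why the GC trend differs between the groups was not tested.

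Library totals alone called 11293 higher and 37 lower over the table, 10 higher and 0 lower of the 10 genes and 37 higher and 0 lower of the others, and turned MAPT 0.95, MAP4 1.30, MAP1A 0.74, MAP6 1.17, NEFL 1.34, NEFM 0.86, DPYSL4 0.47, DPYSL5 0.63, PRPH 0.12, INA 1.02, MAP7D1 0.60 and MAP1S 0.40, where the median of all tested genes was 1.53 in place of 0.15. With no filter 1603 genes, 0 of the 10 and 3 of the others were called lower. A minimum of 10 estimated counts in all libraries called 3 of the 10 higher (DCX, MAP2 and STMN2) and 0 lower, and put MAP4 at 0.14, MAP6 at 0.032 and NEFL at 0.22. NEFL was 0.034 with protein-coding genes only and 0.063 with upper quartile scaling. DESeq2 called 2 of the 10 lower (MAP1A and NEFM).

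Replicate numbers did not pair the samples: deviations of same-numbered libraries correlated at 0.087, -0.0087 and -0.147. With the replicate block 3560 genes were called higher and 3470 lower, and of the 10 genes 2 higher and 0 lower, MAP1A standing at an adjusted p of 0.0513. With the GC trend removed and the replicate block together, 0 genes were called in either direction over the table (3996 at an unadjusted p under 0.05), among the 10 (2) and among the others. The values on the other side of 0 were then MAPT 0.30, MAP1B -0.085, MAP6 0.13, STMN2 -0.078, NEFL 0.024, DPYSL4 0.086, DPYSL5 0.0077, MAP7D1 0.25 and MAP1S 0.013.

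Leaving out each library in turn gave 582 to 4576 genes higher and 200 to 4916 lower, 1 to 2 of the 10 higher and 0 to 3 lower, and 4 to 13 of the others higher and 0 to 13 lower. The lowest counts over the table came without control library 3 and the highest without Oligonol library 2. With the GC trend removed as well, the ranges were 0 to 248 higher and 0 to 252 lower over the table, and 0 of the 10 and 0 of the others in every case; without control library 2, control library 3, Oligonol library 1 or Oligonol library 3 no gene of the table was called, and 3071 to 3641 had an unadjusted p under 0.05. The sign of NEFL was not fixed with no GC term either (-0.24 to 0.048). In those GC fits MAPT ran between 0.18 and 0.39 (between -0.65 and -0.39 with no GC term), MAP1B between -0.26 and 0.074 (0.053 and 0.36), MAP6 between 0.0087 and 0.29 (-0.51 and -0.054), STMN2 between -0.22 and 0.017 (0.26 and 0.54), NEFL between -0.16 and 0.10, and NEFM between -0.31 and 0.060 (-0.73 and -0.39). Likewise DPYSL4 ran between 0.0084 and 0.12 (-1.33 and -0.70), DPYSL5 between -0.12 and 0.068 (-1.05 and -0.63), MAP7D1 between 0.20 and 0.32 (-1.07 and -0.68) and MAP1S between -0.29 and 0.28 (-1.22 and -0.83). In the leave-out fits without a GC term the ratio differences kept their sign, NEFM over NEFL between -0.52 and -0.31, MAP1A over MAP1B between -1.004 and -0.79, MAP2 over MAPT between 1.29 and 1.60, MAP4 over MAPT between 0.20 and 0.42 and DCX over STMN2 between 0.60 and 0.86. With 3 libraries a group, an exact test of a ratio cannot fall below 0.1.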

Other observations

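The introns of these genes hold other annotated features. In GENCODE release 29, 18 features overlap 7 of the 10 genes, and 13 of them lie wholly in introns of 6 genes. In read equivalents, the intron features summed to 78.8, 34.2 and 77.2 with Oligonol, against 49.2, 32.1 and 26.5 in controls, and the groups overlapped in that sum. As CPM after TMM scaling, in which a read of a short feature weighs more, the same features summed to 16.6, 7.07 and 17.8 with Oligonol, against 2.98, 3.59 and 2.07 in controls, with no overlap. For 4 of the 13 every Oligonol library was above every control in CPM, and for 0 was it below, beside 33.8% and 28.8% of all tested genes, among which only 3 of the 13 were. RNA5SP118, a ribosomal RNA pseudogene on the strand opposite MAP2 at chr2:209721913-209722021, had 231.11, 87.76 and 252.49 estimated counts with Oligonol and 0 in all 3 control libraries. It is 109 nt long, shorter than the fitted fragment of 160 nt, so its effective length was set to a floor of 10 nt. On that assumption the values come to 5.02, 2.48 and 5.87 read equivalents. Reads of near-identical copies elsewhere cannot be told apart from those of RNA5SP118. The same floor was used for other features shorter than the fragment, MIR4803 among them, and it enters the sums of read equivalents. VPS26BP1, a pseudogene within MAP4, had 8.94, 2.98 and 9.97 read equivalents with Oligonol, against 0, 1.00 and 0 in controls. MIR4803, in an intron of MAP1B on the same strand, had 4.81, 2.04 and 5.36 with Oligonol, against 0.62, 0.79 and 0 in controls (log2 fold change 2.71, adjusted p = 0.0617 in edgeR's quasi-likelihood test). At exons, the antisense gene ENSG00000272157 over NEFL was called lower with Oligonol (log2 fold change -1.21, adjusted p = 0.0406) and stood at -0.55 (adjusted p = 0.415) with the GC trend removed.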
